A study of Mus musculus with 11 samples.

Results

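The Slc25 genes encode the mitochondrial carrier family, and their RNA levels were read in hearts of mice that lack Cd36, the fatty acid transporter of the plasma membrane, in different cells. Members were the rows of the expression table whose symbol begins with Slc25a and a digit and whose mean over the 11 libraries was at least 10 normalized reads. The table of 23420 genes held 47 such symbols, of which 39 met the minimum and 8 did not. Normalized reads are counts per gene that the authors divided by 1 factor per library.

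4 groups of heart libraries were compared, and the strain label of every library names a Cd36 loxp cross. The Total KO group holds 3 libraries labelled as a total Cd36 knockout, and the labels do not say how that knockout was made. The CM KO group holds 3 libraries of a cardiomyocyte knockout through MHC-cre, a Cre that a myosin heavy chain promoter drives in heart muscle cells. The EC KO group holds 3 libraries of an endothelial knockout through Tie2-cre, a Cre that is also active in part of the blood lineage. The Control group holds 2 libraries, for which no Cre is named. No age or sex is stated, and the text deposited with the series gives its purpose as the role of endothelial Cd36 in lipid and glucose metabolism. Nothing says which libraries come from separate animals, so a p-value measures only the spread between these libraries.

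Mitochondrial carriers are small proteins of the inner membrane, built from repeats of a pair of membrane-spanning helices, that exchange or import metabolites between the cytosol and the matrix. The heart relies on them to send ATP out and bring ADP and phosphate in, to admit acylcarnitines for fatty acid oxidation, and to move reducing equivalents through the malate-aspartate shuttle. A few relatives sit elsewhere, Slc25a17 in peroxisomes and Slc25a46 in the outer mitochondrial membrane.

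Upstream DNA is shown for members whose differences between CM KO and another group were among the largest in the family. Slc25a20 was added because it passed by limma against Control over all 11 libraries. The sequences are RefSeq promoter windows of GRCm38.p6, printed 5′ to 3′ on the gene's own strand and cut back to the bases that lie before the outermost start in RefSeq and in GENCODE M21. Capitals mark the 7 letters CCGGAAG, the core that ETS factors such as GABPA bind. The stretches are chr9:108661886-108662087 on the plus strand for Slc25a20, chr6:6217305-6217423 on the minus strand for Slc25a13, chr4:149774278-149774517 on the minus strand for Slc25a33 and chr17:57059910-57060113 on the minus strand for Slc25a23. The stretch at chr12:108835884-108836045, given on the minus strand, is the 162 bases between Slc25a29 and Slc25a47, which GENCODE annotates head to head on opposite strands.
Slc25a20: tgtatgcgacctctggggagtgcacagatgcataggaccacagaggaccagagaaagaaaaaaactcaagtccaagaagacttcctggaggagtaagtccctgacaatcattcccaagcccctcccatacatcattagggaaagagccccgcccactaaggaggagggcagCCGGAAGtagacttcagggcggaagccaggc
Slc25a13: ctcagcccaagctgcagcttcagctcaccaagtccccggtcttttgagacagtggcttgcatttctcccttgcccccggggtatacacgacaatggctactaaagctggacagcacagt
Slc25a29 and Slc25a47: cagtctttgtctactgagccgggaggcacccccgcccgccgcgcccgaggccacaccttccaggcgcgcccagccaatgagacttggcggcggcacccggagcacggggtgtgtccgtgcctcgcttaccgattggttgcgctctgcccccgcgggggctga
Slc25a33: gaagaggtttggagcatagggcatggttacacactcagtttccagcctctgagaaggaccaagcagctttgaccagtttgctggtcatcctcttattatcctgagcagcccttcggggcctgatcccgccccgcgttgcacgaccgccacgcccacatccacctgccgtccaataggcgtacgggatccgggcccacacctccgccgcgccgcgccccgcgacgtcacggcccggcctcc
Slc25a23: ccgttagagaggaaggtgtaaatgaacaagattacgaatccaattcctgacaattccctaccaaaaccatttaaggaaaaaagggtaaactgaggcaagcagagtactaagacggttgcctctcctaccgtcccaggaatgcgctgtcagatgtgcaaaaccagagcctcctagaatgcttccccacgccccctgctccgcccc

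The libraries held 11157062 to 20105673 counted reads except EC KO library 1, which held 2268403, so that 1 read there is worth 6.04 normalized reads. Cd36 had 18847, 23452 and 21266 normalized reads in Total KO, 15792, 21610 and 21363 in CM KO, 30308, 27804 and 25758 in EC KO, and 44530 and 35425 in Control. Reads of Cd36 were present in every knockout library, and since the labels do not name the deleted exons, this total does not check the deletion. Cell type markers set the CM KO libraries apart. The 8 cardiomyocyte markers summed to 773961, 1109095 and 1040739 normalized reads in CM KO, against 1172876 to 1395048 in the other 8 libraries. The 7 fibroblast markers summed to 83336, 25743 and 33683 in CM KO, against 13521 to 16809 in the others, and the 6 macrophage markers in the table summed to 9576, 5612 and 7016 in CM KO, against 2804 to 3803. CM KO library 1 was the most extreme library in all 3 sums. The fibroblast markers did not move alike. In CM KO minus Control, 4 of the 7 were called higher by limma, where 3.29% of all genes were, namely Col1a1, Col1a2, Col3a1 and Postn. Pdgfra, Dcn and Tcf21 were not called there, with log2 differences of 0.32, 0.48 and 0.20. Of the 7 atrial markers, Nppa, Mybphl and Dkk3 were higher in CM KO than in each other group, while Myl7, Sln and Bmp10 stayed under the mean of 10 and Myl4 averaged 30.4 in CM KO and 33.0 in Control. The 7 endothelial markers summed to 14469 to 15758 in Total KO, 13469 to 14128 in CM KO, 17403 to 19848 in EC KO, and 15714 and 16342 in Control. In CM KO minus EC KO, 5 of these 7 were called lower by limma, where 8.72% of all genes were. The globin genes Hba-a1, Hba-a2, Hbb-b1 and Hbb-b2 were listed at 0 in every library, which does not show how much blood the tissue held. Alas2, the 1 erythroid marker tested, ran from 0 in EC KO library 1 to 115 in Control library 1. The adipocyte markers summed to at most 30.7 in any library. In bulk tissue, fewer cells of a type and less RNA per cell cannot be told apart. The label numbers of the CM KO libraries form a run of their own, as do those of the Total KO libraries, while those of EC KO and Control interleave. What the numbers stand for is not stated, so for CM KO and for Total KO the run and the genotype cannot be told apart.

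Per kilobase of exon, 1 carrier outweighed the family. Slc25a4, the ADP/ATP carrier of heart and muscle, averaged 40259 normalized reads per kb in Total KO, 31281 in CM KO, 37254 in EC KO and 39359 in Control, and made up 66.7% of the family's per-kb level over all libraries. The next 4 by level per kb were Slc25a11, the malate/2-oxoglutarate carrier, with 4857 over all libraries, Slc25a3, the phosphate carrier, with 4276, Slc25a34, whose cargo is less settled, with 2541, and Slc25a5, the second ADP/ATP carrier, with 1036. Slc25a5 has a close paralog in Slc25a4 and a processed copy elsewhere in the genome, so its count is uncertain where reads could fit both. The level of Slc25a4 per kb was 40.7, 30.9 and 41.1 times that of Slc25a5 in Total KO, 22.3, 33.9 and 33.8 times in CM KO, 39.8, 34.5 and 34.3 times in EC KO, and 44.6 and 39 times in Control. CM KO library 1 gave the lowest ratio of the 11. The rest of the family ran from 856 per kb for Slc25a39 to 1.35 for Slc25a53.

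**Figure D1:**
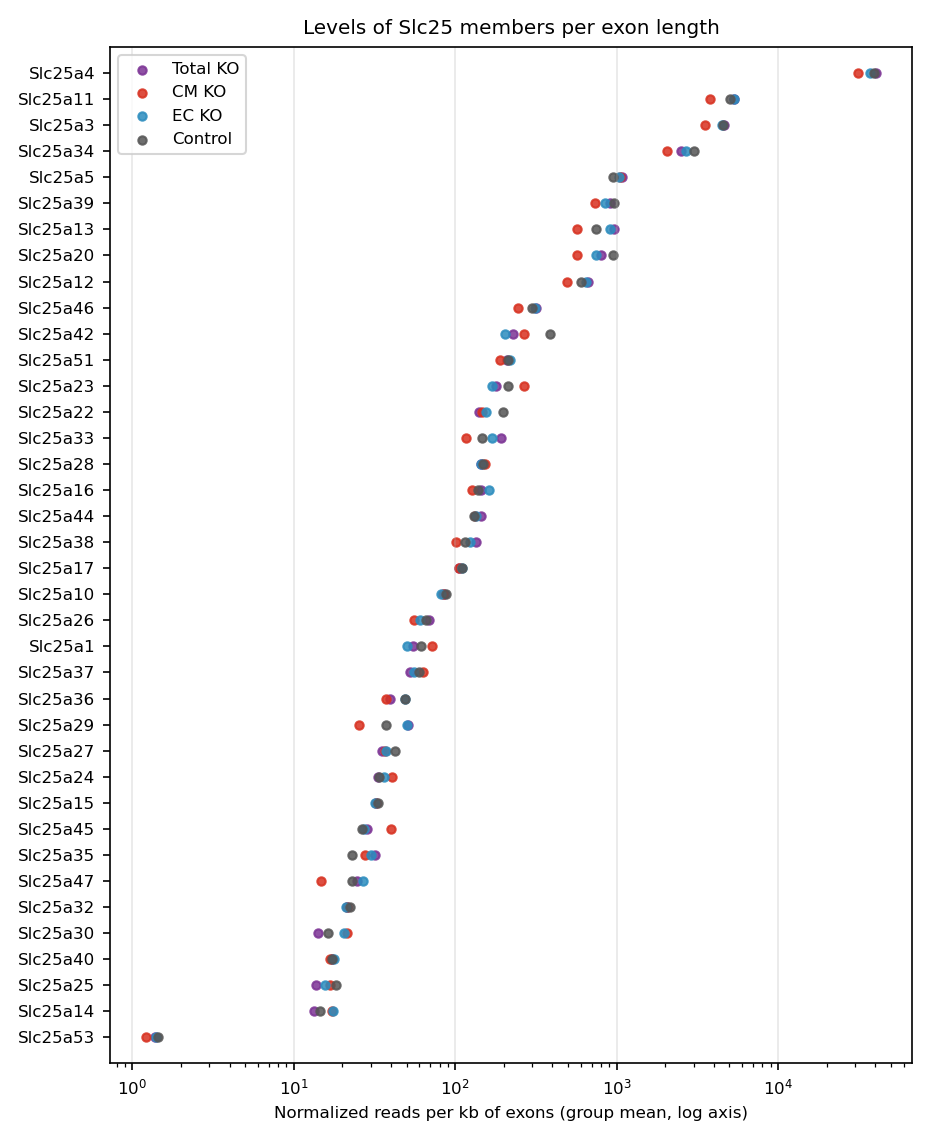
Group means of 38 of the 39 members in normalized reads per kilobase of merged exon on a log axis, 1 row per gene in order of level, with 1 point for each of Total KO, CM KO, EC KO and Control. Slc25a4 stands highest at 31281 to 40259 per kb, and the red CM KO points lie left of the others for Slc25a11, Slc25a3, Slc25a13, Slc25a20 and Slc25a12.

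Of the symbols left out, Slc25a31, a germ cell ADP/ATP carrier, averaged 9.12 normalized reads and Slc25a18, a glutamate carrier, 8.16, just under the minimum. Slc25a53 lay just above it at 10.8. Slc25a2, Slc25a43, Slc25a21, Slc25a41 and Slc25a54 averaged 2.14 down to 0.0678, and Slc25a48 was listed at 0 in every library. The median member averaged 347.9 normalized reads, against 280.4 for the 12976 genes tested.

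Summed over the 39 members, the family took a smaller share of each CM KO library than of any other library. The sum made up 1.22%, 1.17% and 1.21% of the normalized reads in Total KO, 0.886%, 1.12% and 1.08% in CM KO, 1.18%, 1.13% and 1.16% in EC KO, and 1.23% and 1.24% in Control. The gap between CM KO library 2 and EC KO library 2 was small, and CM KO library 1 lay furthest down. Slc25a4, which passed no limma test, held 55.9% of this sum.

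Tested gene by gene, most differences in the family set CM KO against the other knockouts and few set a knockout against Control. By limma with Benjamini-Hochberg adjustment over all genes, an adjusted p under 0.05 was called. In CM KO minus EC KO, 12 of 39 members (30.8%) were called, 4 higher and 8 lower, against 19.1% of all genes tested (10.4% higher, 8.72% lower). In Total KO minus CM KO, 11 members (28.2%) were called, 9 higher and 2 lower, against 16.4% of all genes (8.2% higher, 8.2% lower). Both comparisons use the same CM KO libraries, so their counts are not independent. The excess of the family's share over the background depended on the setting. Over 20 other settings, each with its own background, the ratio of the shares ran from 1.1 to 2.28 in CM KO minus EC KO and from 1.33 to 2.56 in Total KO minus CM KO. In CM KO minus EC KO, 15.4% of members stood against 13.6% of all genes without EC KO library 1, and 15.4% against 12.4% without EC KO library 2, so there the members' share was near the background. Against Control, 2 members (5.13%) were called in CM KO minus Control, both lower, and 5.7% of all genes were (3.29% higher, 2.4% lower), so this count is near the background.

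No member was called in the remaining pairs of groups, where few genes of any kind were. The counts were 0 of 39 in Total KO minus Control (0.0848% of all genes called, 0.0617% higher and 0.0231% lower), EC KO minus Control (0.316%) and Total KO minus EC KO (0.0385%) by limma. At an unadjusted p under 0.05 these comparisons held 4, 5 and 2 members. The share of all genes at that threshold is not given, so these counts have no background to be read against. By edgeR on the recovered reads no member was called in these 3 comparisons either, with 0.108%, 0.385% and 0.0308% of all genes called. DESeq2 called 0 of 37, 1 of 38 and 0 of 38 members with an adjusted p, against 0.717%, 1.25% and 0.539% of all genes. The F test over the 3 contrasts with Control asks which members differ among the 4 groups, and it called 9 members (23.1%) against 14.3% of all genes.

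The median member differed by -0.15 on the log2 scale in CM KO minus Control, by -0.07 in CM KO minus EC KO and by 0.09 in Total KO minus CM KO, where the medians of all genes tested were -0.004, 0.002 and -0.005. Rescaling every library to the same total shifted the median of all genes to 0.12 in CM KO minus EC KO and to -0.14 in Total KO minus CM KO, and the members' medians changed sign with it, to 0.05 and -0.04. Relative to all genes the members' medians stayed at -0.07 or -0.08 and 0.10 under both scalings. The split of called members also moved under that scaling, to 4 higher and 5 lower in CM KO minus EC KO and to 7 higher and 4 lower in Total KO minus CM KO. Of all genes, 16.1% were then called higher and 4.93% lower in CM KO minus EC KO, so that 23.1% of members stood near the 21% of all genes. In Total KO minus CM KO, 4.21% of all genes were then higher and 13.5% lower. The median member differed by -0.01 in Total KO minus Control, 0.03 in Total KO minus EC KO and 0.02 in EC KO minus Control.

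**Figure D2:**
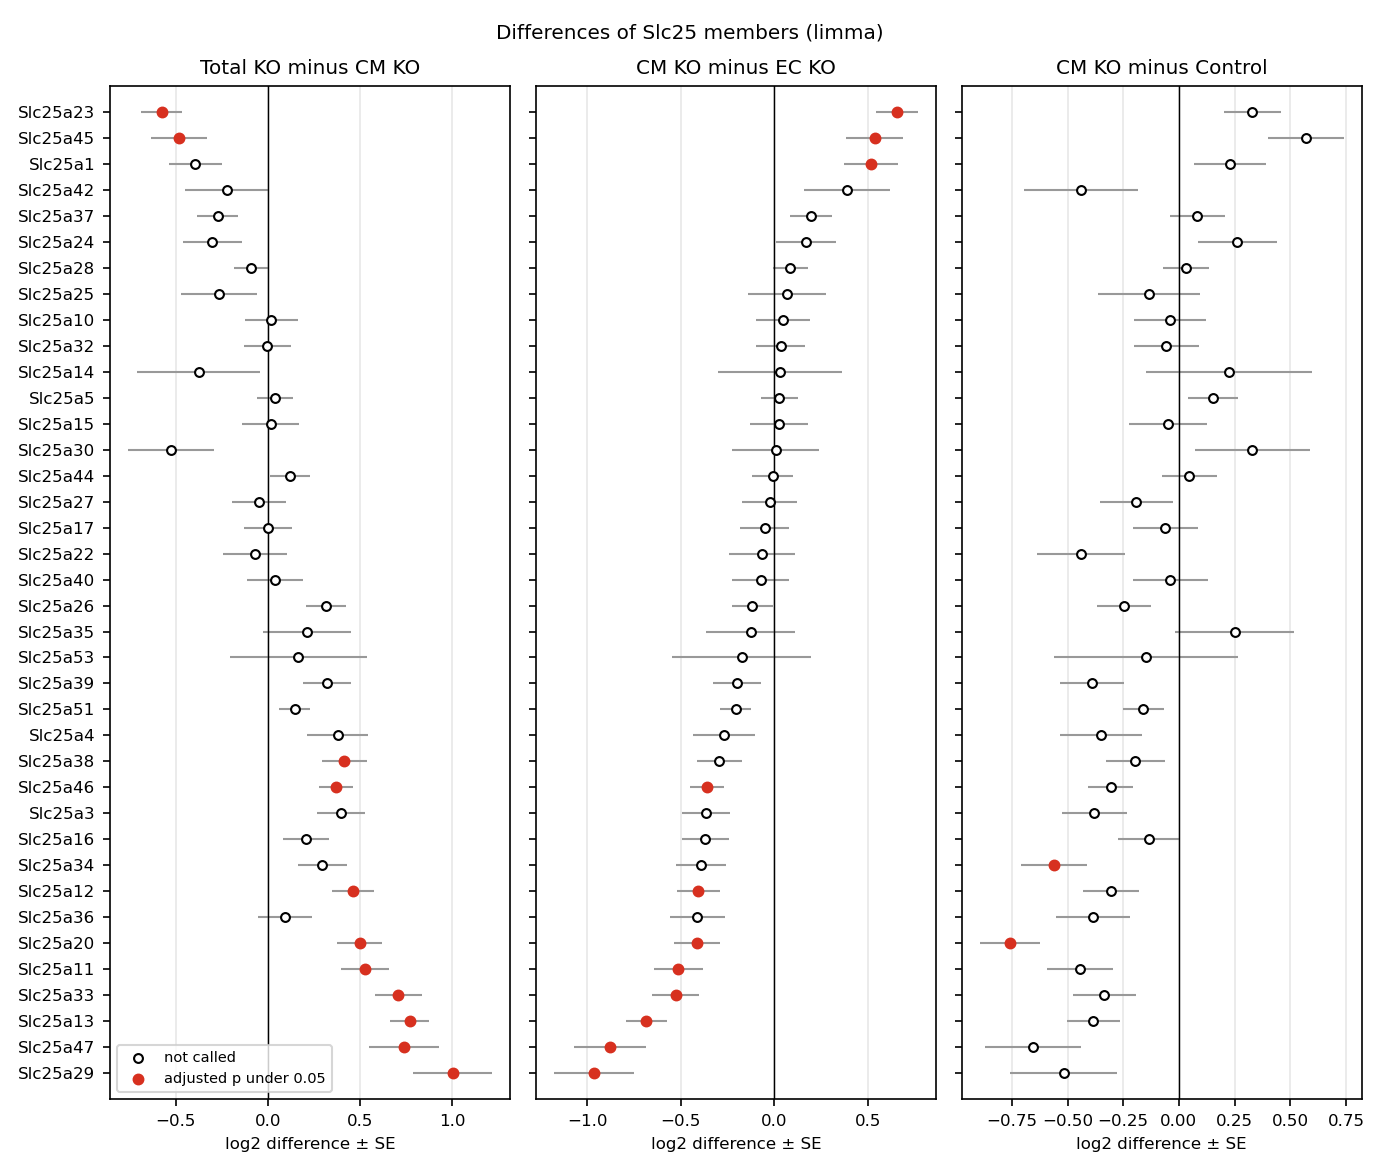
Log2 differences of 38 of the 39 members with their standard errors (horizontal bars) in Total KO minus CM KO, CM KO minus EC KO and CM KO minus Control, from limma on log2(value + 1), with filled red points for an adjusted p under 0.05. The members are ordered by CM KO minus EC KO, from Slc25a23 (0.65) to Slc25a29 (-0.96), and 11, 11 and 2 points are filled in the 3 panels.

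The 3 CM KO libraries lay below all 8 other libraries for 9 members (23.1%), which were Slc25a3, Slc25a11, Slc25a12, Slc25a13, Slc25a20, Slc25a33, Slc25a46, Slc25a47 and Slc25a51. Of all genes tested, 7.85% lay apart in that direction. The CM KO libraries lay above the other 8 for Slc25a23 and Slc25a45, which is 5.13% of the members against 9.05% of all genes. Reading the libraries of one pair of groups at a time, the ranges did not overlap for 13 lower and 6 higher members in CM KO minus EC KO, where 19.1% and 19.7% of all genes did not. Total KO minus CM KO had 15 members higher and 5 lower without overlap, against 19.6% and 19.3% of all genes. For CM KO minus Control, 14 were lower and 3 higher, against 18.3% of all genes each way.

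**Figure D3:**
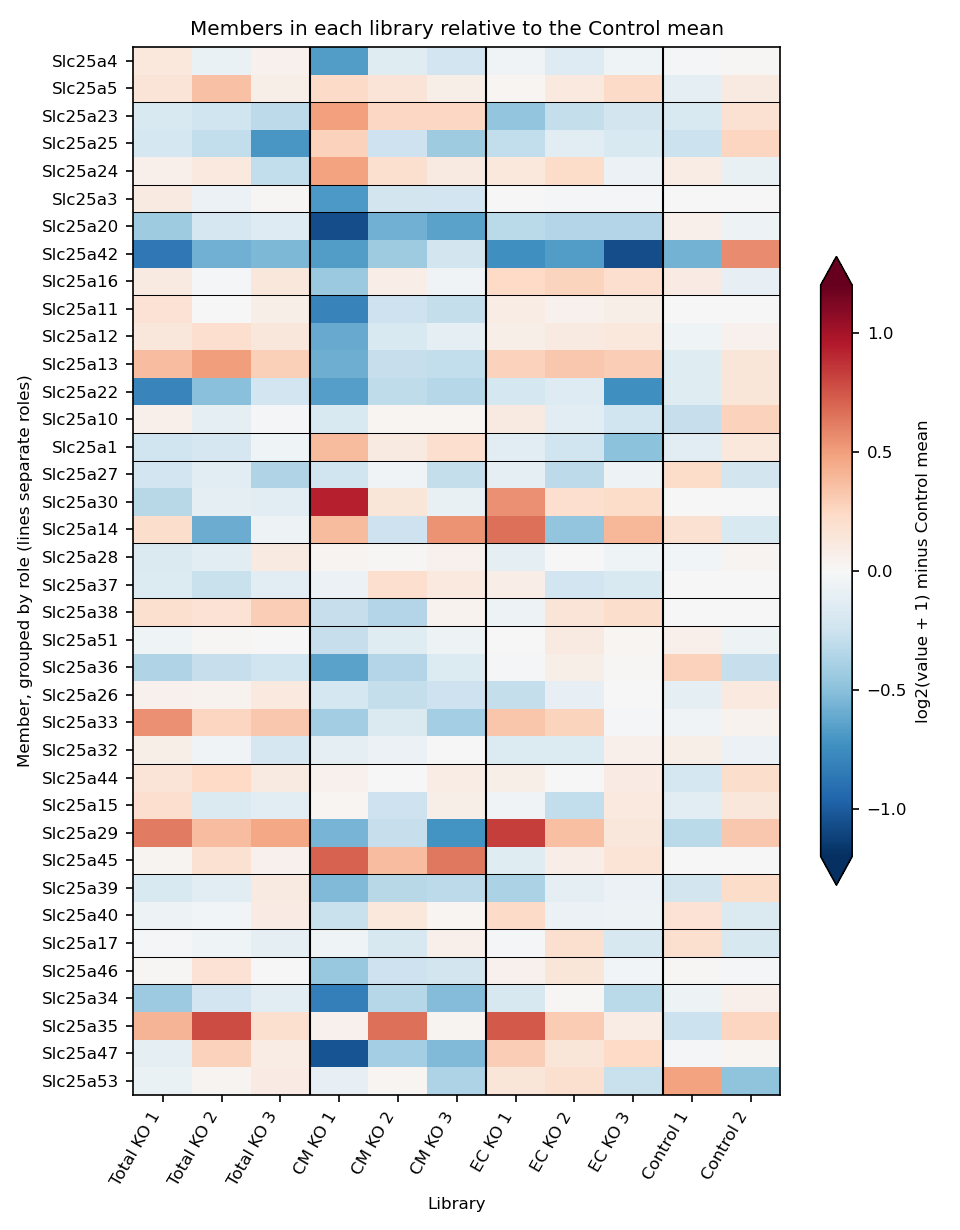
Difference of log2(value + 1) from the Control mean for 38 of the 39 members (rows, grouped by role with thin lines between groups) in each of the 11 libraries (columns), red above and blue below. The CM KO columns are blue for Slc25a20, Slc25a11, Slc25a12, Slc25a13 and Slc25a47 and red for Slc25a23 and Slc25a45, and CM KO 1 is the darkest of the 3 in most of these rows.

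The carriers of the malate-aspartate shuttle were lower in CM KO than in either other knockout group. This shuttle carries the electrons of cytosolic NADH into the matrix, by exchanging malate for 2-oxoglutarate through Slc25a11 and glutamate for aspartate through Slc25a12 (aralar) or Slc25a13 (citrin). Slc25a11 (chr11:70644196-70647479) had 12057, 10768 and 11258 normalized reads in Total KO, 6158, 9049 and 8784 in CM KO, 11390, 11119 and 11241 in EC KO, and 10706 and 10735 in Control. All CM KO values lay below all others. The difference was -0.51 ± 0.13 in CM KO minus EC KO (log2 ± SE, limma, adjusted p = 0.0175) and 0.53 ± 0.13 in Total KO minus CM KO (adjusted p = 0.0183). Against Control, CM KO stood at -0.44 ± 0.15 (adjusted p = 0.0990), short of the threshold. That Slc25a11 comparison passed by DESeq2 (-0.42, adjusted p = 0.0479) and by limma without CM KO library 2 (-0.54, adjusted p = 0.0476).

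Slc25a12 (chr2:71271063-71367749) had 4837, 5057 and 4850 normalized reads in Total KO, 2891, 3871 and 4060 in CM KO, 4634, 4750 and 4812 in EC KO, and 4242 and 4579 in Control. The CM KO libraries were again the lowest 3. Its differences were -0.41 ± 0.11 in CM KO minus EC KO (adjusted p = 0.0266, limma) and 0.46 ± 0.11 in Total KO minus CM KO (adjusted p = 0.0181). Slc25a13 (chr6:6041218-6217173) had 3628, 3982 and 3410 in Total KO, 1872, 2318 and 2283 in CM KO, 3396, 3510 and 3445 in EC KO, and 2540 and 3095 in Control. For both paralogs the Control values lay between those of CM KO and those of the other knockouts. Total KO and EC KO overlapped for Slc25a13 and did not for Slc25a12, while the differences with CM KO were larger for Slc25a13. Slc25a13 had the lowest F-test p of the family (limma, adjusted p = 0.00321), with -0.68 ± 0.11 in CM KO minus EC KO (adjusted p = 0.00167) and 0.77 ± 0.11 in Total KO minus CM KO (adjusted p = 0.00165). Neither paralog passed by limma in CM KO minus Control. Slc25a12 stood there at -0.305 ± 0.127 (adjusted p = 0.191) and Slc25a13 at -0.384 ± 0.12 (adjusted p = 0.0824).

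The Slc25a13 calls held with each library left out in turn. For Slc25a11, limma's adjusted p was 0.0519 in CM KO minus EC KO without EC KO library 1, and 0.0648 and 0.0583 in Total KO minus CM KO without Total KO libraries 1 and 3. For Slc25a12, it was 0.0585, 0.0715 and 0.0688 in CM KO minus EC KO without EC KO libraries 1, 2 and 3, and 0.0599 and 0.0552 in Total KO minus CM KO without Total KO libraries 2 and 3. Without CM KO library 1 the Slc25a11 difference in CM KO minus EC KO was -0.34 and that of Slc25a12 was -0.26. About 8.9% of the exon bases of Slc25a11 overlap Rnf167 on the opposite strand, and the strand setting of the counting is not stated.

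The enzymes of the same shuttle were Got1, Got2, Mdh1 and Mdh2, the aspartate aminotransferases and malate dehydrogenases of cytosol and matrix. Of these 4, Got1 was lower in CM KO minus EC KO (-0.82 ± 0.14, limma, adjusted p = 0.00274). Got1 (0.70 ± 0.14, adjusted p = 0.00789) and Mdh2 (0.39 ± 0.12, adjusted p = 0.0485) were higher in Total KO minus CM KO, and none passed against Control. The list's median was -0.38 in CM KO minus EC KO and 0.42 in Total KO minus CM KO. Other carriers of these substrates did not pass. Slc25a10, the dicarboxylate carrier, had 310.6, 275 and 295 normalized reads in Total KO, 263, 304 and 303 in CM KO, 320.2, 273 and 253 in EC KO, and 246 and 360.1 in Control, with all groups overlapping. Slc25a22, a glutamate carrier, ran from 681 to 1011 in Total KO, 748 to 955 in CM KO and 708 to 1063 in EC KO, against 1071 and 1308 in Control, with limma adjusted p of 0.504, 0.225 and 0.550 against Control. Both Control values lay above the 9 knockout values.

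Cardiomyocyte markers were lowest and fibroblast and macrophage markers highest in the libraries where these carriers were lowest, with the sums given above, and their part in these differences was not tested. Of the 8 cardiomyocyte markers, 3 passed as lower in CM KO minus EC KO and 1 as higher in Total KO minus CM KO, with medians of -0.45 and 0.41. Of all genes, 8.72% were called lower in the first comparison and 8.2% higher in the second.

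**Figure D4:**
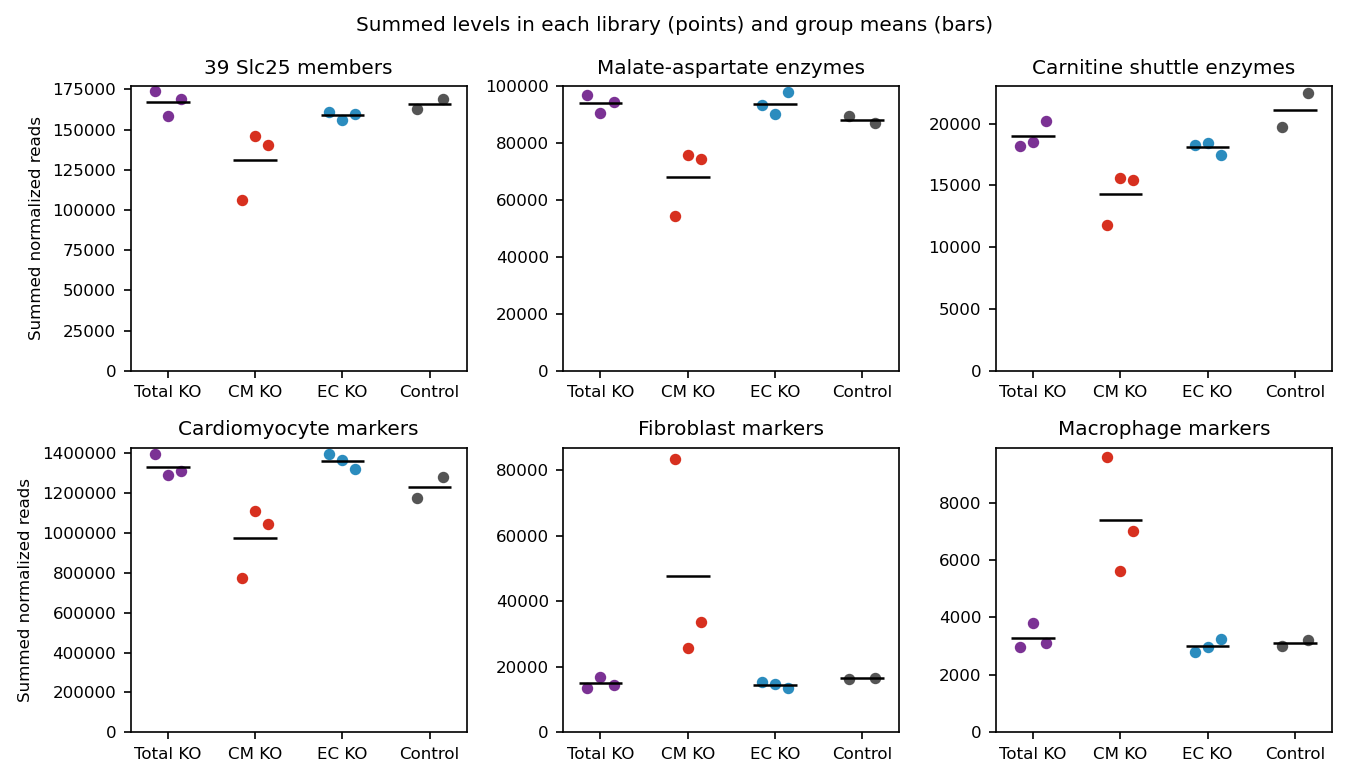
Summed normalized reads, on axes that start at 0, in each library (points) with group means (bars) for the 39 members, the malate-aspartate and carnitine shuttle enzymes, and cardiomyocyte, fibroblast and macrophage markers. In every panel the 3 CM KO points lie on one side of all others, below for the carriers, enzymes and cardiomyocyte markers and above for the fibroblast and macrophage markers, with CM KO library 1 the furthest out.

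Slc25a20, the carnitine/acylcarnitine carrier that brings long-chain acyl groups into the matrix, was lower in CM KO than in each other group. Slc25a20 (chr9:108662088-108684641) had 3432, 4009 and 4131 normalized reads in Total KO, 2206, 3090 and 2956 in CM KO, 3668, 3597 and 3604 in EC KO, and 4788 and 4426 in Control. The CM KO values were the lowest 3 and both Control values the highest, with no overlap between Control and any knockout group. The difference was -0.76 ± 0.14 in CM KO minus Control (limma, adjusted p = 0.0126), -0.41 ± 0.12 in CM KO minus EC KO (adjusted p = 0.0332) and 0.50 ± 0.12 in Total KO minus CM KO (adjusted p = 0.0172). In EC KO minus Control it was -0.34 ± 0.14 (adjusted p = 0.396) and in Total KO minus Control -0.26 ± 0.14 (adjusted p = 0.690), neither past the threshold.

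The Slc25a20 call against Control had a limma adjusted p of 0.134 without Control library 1, at a difference of -0.70, and of 0.0846 in a fit to those 2 groups alone. Against EC KO the adjusted p was 0.0849, 0.0778 and 0.0712 when EC KO library 1, 2 or 3 was left out, and 0.0874 without CM KO library 1, where the difference was -0.26. For Total KO minus CM KO it was 0.0597 and 0.0729 without Total KO libraries 2 and 3. The CCGGAAG printed in capitals above lies 79 bases before the RefSeq start of this gene.

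The carnitine enzymes hand substrate to Slc25a20 and take it up behind it. Of the 4 listed, 3 were called lower in CM KO minus Control, where 2.4% of all genes were. Cpt1b, which forms acylcarnitine at the outer membrane of muscle mitochondria, was lower in CM KO minus Control (-0.66 ± 0.16, limma, adjusted p = 0.0341), as were Cpt2, its partner in the matrix (-0.79 ± 0.14, adjusted p = 0.0123), and Crat, which acts on short chains (-0.57 ± 0.15, adjusted p = 0.0422). Cpt1a, the form best known from liver, stood at -0.06 ± 0.16 (adjusted p = 0.881). Over all libraries Cpt1b averaged 300.9 normalized reads and Cpt1a 1787, and the reason for the low Cpt1b count was not tested. Cpt2 and Crat were also lower in CM KO minus EC KO (-0.47 and -0.42), and Cpt1b, Cpt2 and Crat were higher in Total KO minus CM KO (0.57, 0.54 and 0.50). None of the 4 passed between EC KO or Total KO and Control. In CM KO minus Control, a limma fit to those 2 groups alone called 0.483% of all genes, against 5.7% in the fit to all libraries. The calls of these enzymes were not checked in that fit or with libraries left out. The marker sums given above moved with these enzymes too, and their part was not tested.

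Slc25a42, which imports coenzyme A, varied most within Control. It had 1188, 1451 and 1491 normalized reads in Total KO, 1360, 1605 and 1858 in CM KO, 1293, 1358 and 1031 in EC KO, and 1458 and 3201 in Control. Control library 2 stood far above the other 10 libraries, and Control library 1 lay among the knockouts. The difference in EC KO minus Control was -0.82 ± 0.26 (limma, adjusted p = 0.263). It became -1.39 (adjusted p = 0.0224) without Control library 1, which leaves the high library alone in its group and assumes that it varies like the others, and -0.92 (adjusted p = 0.0262) by DESeq2. Without Control library 2 the count of members called in that comparison was 0. Slc25a16, linked to coenzyme A by its yeast counterpart, did not pass, at -0.37 ± 0.12 in CM KO minus EC KO (limma, adjusted p = 0.0547).

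Slc25a4, Slc25a5 and Slc25a3 supply ATP synthase with ADP and phosphate, and none of the 3 passed by limma over all libraries, while Slc25a4 and Slc25a3 passed by DESeq2. Slc25a4 (chr8:46206797-46211284) had 100865, 87353 and 95973 normalized reads in Total KO, 58123, 83857 and 78831 in CM KO, 90065, 83387 and 89521 in EC KO, and 91899 and 93325 in Control. CM KO library 1 was the lowest of the 11, and CM KO library 2 fell inside the EC KO range. The difference was 0.38 ± 0.16 in Total KO minus CM KO (limma, adjusted p = 0.136) and -0.35 ± 0.18 in CM KO minus Control (adjusted p = 0.302). DESeq2 on the recovered reads gave 0.36 (adjusted p = 0.0322) for Slc25a4 in Total KO minus CM KO.

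Slc25a3 (chr10:91116574-91124059), which brings phosphate into the matrix, had 27178, 24062 and 25499 normalized reads in Total KO, 15692, 21626 and 21516 in CM KO, 25262, 24835 and 24880 in EC KO, and 25217 and 25290 in Control. All 3 CM KO values were the lowest of the 11, and the other 3 groups overlapped. The difference was 0.40 ± 0.13 in Total KO minus CM KO (limma, adjusted p = 0.0546) and -0.37 ± 0.13 in CM KO minus EC KO (adjusted p = 0.0670). By DESeq2 both passed, at 0.38 (adjusted p = 0.0141) and -0.35 (adjusted p = 0.0264). Slc25a5 had 1733, 1978 and 1634 in Total KO, 1827, 1731 and 1631 in CM KO, 1583, 1689 and 1827 in EC KO, and 1441 and 1676 in Control, with every pair of groups overlapping.

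Among the proteins that work with the ADP/ATP carriers, Hk1 was higher and Hk2 lower in CM KO than in EC KO. Hk1 was higher in CM KO minus Control (0.77 ± 0.17, limma, adjusted p = 0.0240) and in CM KO minus EC KO (0.67 ± 0.15, adjusted p = 0.00973). Hk2, the insulin-responsive hexokinase of muscle, was lower in CM KO minus EC KO (-0.86 ± 0.15, adjusted p = 0.00334) and higher in Total KO minus CM KO (0.99 ± 0.15, adjusted p = 0.00307). Ppif, the cyclophilin of the permeability transition, was higher in Total KO minus CM KO (0.55 ± 0.15, adjusted p = 0.0300). The other 4 of the 7 tested, Ckmt2 and Vdac1 to Vdac3, passed in no comparison.

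Slc25a23, a calcium-regulated exchanger of ATP-Mg for phosphate, was higher in CM KO than in either other knockout group. Slc25a23 (chr17:57043711-57059863) had 987, 949 and 899 normalized reads in Total KO, 1573, 1334 and 1332 in CM KO, 809.7, 919.8 and 963 in EC KO, and 985 and 1276 in Control. All CM KO values lay above all others, with Control library 2 nearest. The difference was 0.65 ± 0.11 in CM KO minus EC KO (adjusted p = 0.00288, limma) and -0.58 ± 0.11 in Total KO minus CM KO (adjusted p = 0.00723), and both held with each library left out. Set against Control, CM KO was at 0.33 ± 0.13 (adjusted p = 0.156). Its relatives Slc25a24 and Slc25a25 passed in no comparison, with differences of 0.17 ± 0.16 and 0.07 ± 0.21 in CM KO minus EC KO.

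**Figure D5:**
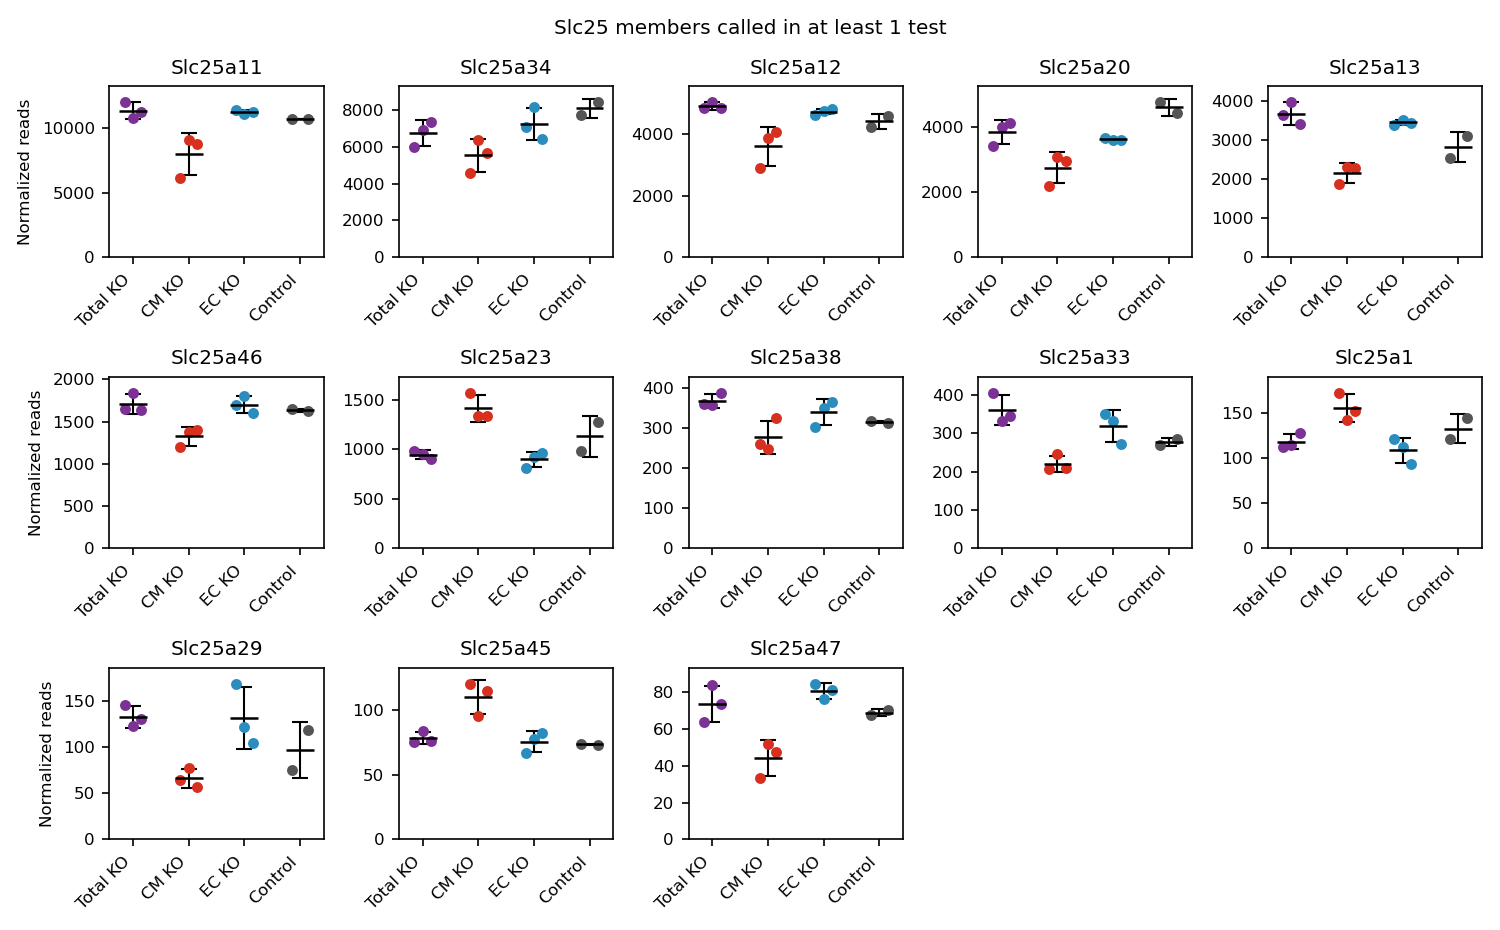
Normalized reads, from 0, in each library (points) for 13 of the 14 members called in at least 1 comparison, with group mean (horizontal bar) and SD (vertical bar, n = 3, or 2 in Control) for Total KO, CM KO, EC KO and Control. The CM KO points are lowest of all libraries for Slc25a11, Slc25a12, Slc25a13, Slc25a20, Slc25a33, Slc25a46 and Slc25a47 and highest for Slc25a23 and Slc25a45.

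The largest differences of the family by log2 size belonged to the neighbours Slc25a29 and Slc25a47 on chromosome 12. Slc25a29, a carrier of basic amino acids, runs on the minus strand (chr12:108825873-108835883), and Slc25a47, a carrier best known from liver, on the plus strand (chr12:108836046-108856815). They are the only 2 of the 39 members that lie within 20000 bases of each other. GENCODE leaves 162 bases between them, printed above, and RefSeq, which starts Slc25a47 further in, leaves 13956.

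Slc25a29 had 146, 123 and 131 normalized reads in Total KO, 64.0, 77.7 and 57.2 in CM KO, 169, 122 and 104 in EC KO, and 75.4 and 118 in Control. The CM KO values lay below those of both other knockout groups, while Control library 1 fell inside the CM KO range. The difference was -0.96 ± 0.21 in CM KO minus EC KO (adjusted p = 0.00948, limma) and 1.0 ± 0.21 in Total KO minus CM KO (adjusted p = 0.00994), and both held with each library left out. Slc25a47 had 63.6, 83.6 and 73.4 in Total KO, 33.2, 51.8 and 47.4 in CM KO, 84.6, 76.1 and 81.3 in EC KO, and 67.6 and 70.1 in Control. Here all CM KO values lay below all others.

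For Slc25a47 the difference was -0.88 ± 0.19 in CM KO minus EC KO (limma, adjusted p = 0.00873), which held with each library left out. For Total KO minus CM KO it was 0.74 ± 0.19 (adjusted p = 0.0218), with an adjusted p of 0.0823 without CM KO library 1 and of 0.0860 and 0.0710 without Total KO libraries 2 and 3. Against Control, CM KO stood at -0.52 ± 0.24 (adjusted p = 0.240) for Slc25a29 and at -0.65 ± 0.22 (adjusted p = 0.0990) for Slc25a47. Both genes are among the lower ones of the family, with 41.5 and 22.3 normalized reads per kb over all libraries, so few reads carry them in EC KO library 1.

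Slc25a33, a carrier of pyrimidine nucleotides for mitochondrial nucleic acids, was also lower in CM KO than in either other knockout group. Slc25a33 (chr4:149744036-149774277) had 406, 331 and 346 normalized reads in Total KO, 207, 245 and 208 in CM KO, 350.4, 333 and 272 in EC KO, and 269.7 and 285 in Control. The CM KO values were the lowest 3. The difference was -0.53 ± 0.13 in CM KO minus EC KO (adjusted p = 0.0138, limma) and 0.71 ± 0.13 in Total KO minus CM KO (adjusted p = 0.00508). The first had an adjusted p of 0.0503 and 0.0516 without EC KO libraries 1 and 2, and the second held with each library left out. Neither CM KO nor Total KO passed against Control by limma. Slc25a33 stood at -0.335 ± 0.142 in CM KO minus Control (adjusted p = 0.199) and at 0.375 ± 0.142 in Total KO minus Control (adjusted p = 0.495). An antisense gene, Gm13068, covers 14.9% of its exon bases, and reads of the pair cannot be told apart if strand was not used in counting.

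Slc25a46, an outer membrane protein involved in mitochondrial fission and lipid handling, had 1655, 1844 and 1632 normalized reads in Total KO, 1195, 1379 and 1403 in CM KO, 1698, 1805 and 1599 in EC KO, and 1649 and 1620 in Control. The CM KO libraries were the lowest 3 and the other groups overlapped. The difference was -0.36 ± 0.09 in CM KO minus EC KO (adjusted p = 0.0165, limma) and 0.37 ± 0.09 in Total KO minus CM KO (adjusted p = 0.0176). The first had an adjusted p of 0.0664 without EC KO library 2 and 0.0546 without CM KO library 1. The second had one of 0.0592 without CM KO library 1 and 0.0723 without Total KO library 2. Slc25a46 did not pass in CM KO minus Control, at -0.305 ± 0.101 (limma, adjusted p = 0.102).

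Slc25a38, which brings glycine into the matrix for haem synthesis, was called by limma in Total KO minus CM KO. Slc25a38 (chr9:120110374-120124504) had 359, 356 and 388 normalized reads in Total KO, 260.0, 247 and 324 in CM KO, 302, 350.4 and 364 in EC KO, and 317 and 313 in Control. CM KO library 3 lay inside the EC KO range and above both Control values. The difference was 0.42 ± 0.12 (limma, adjusted p = 0.0329), and its adjusted p was 0.110 and 0.0958 without CM KO libraries 1 and 2 and 0.0724, 0.0716 and 0.116 without Total KO libraries 1, 2 and 3. Set against EC KO, CM KO was at -0.30 ± 0.12 (adjusted p = 0.101), and at -0.41 (adjusted p = 0.0411) without CM KO library 3.

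Slc25a34 was the other member called against Control. Slc25a34 (chr4:141618824-141623821) had 5967, 6909 and 7361 normalized reads in Total KO, 4566, 6359 and 5644 in CM KO, 7063, 8151 and 6439 in EC KO, and 7727 and 8444 in Control. The CM KO values lay below both Control values and below the EC KO values, and CM KO library 2 lay above Total KO library 1. The difference was -0.56 ± 0.15 in CM KO minus Control (limma, adjusted p = 0.0471). Its adjusted p stayed under 0.05 with 2 of the 11 libraries left out, CM KO library 2 and Total KO library 1. It was 0.0598, 0.0546 and 0.0540 without EC KO libraries 1, 2 and 3, 0.111 and 0.0812 without CM KO libraries 1 and 3, 0.0685 and 0.0639 without Total KO libraries 2 and 3, and 0.185 and 0.149 without Control libraries 1 and 2.

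In addition to Slc25a23, Slc25a45 and Slc25a1 were higher in CM KO than in EC KO. Slc25a45 (chr19:5877808-5885878), placed by sequence near the basic amino acid carriers, had 75.1, 83.6 and 75.9 normalized reads in Total KO, 120.3, 95.2 and 114 in CM KO, 66.5, 77.8 and 82.2 in EC KO, and 73.8 and 73.1 in Control. All CM KO values lay above all others. The difference was 0.54 ± 0.15 in CM KO minus EC KO (adjusted p = 0.0290, limma) and -0.48 ± 0.15 in Total KO minus CM KO (adjusted p = 0.0493). Set against Control, CM KO was at 0.57 ± 0.17 (adjusted p = 0.0733), and edgeR called that difference (0.58, adjusted p = 0.0469).

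Leaving out libraries ended both Slc25a45 calls. The adjusted p of CM KO minus EC KO was 0.0810 and 0.0607 without EC KO libraries 1 and 2 and 0.103 and 0.0881 without CM KO libraries 1 and 3. That of Total KO minus CM KO stayed under 0.05 without EC KO library 1 or CM KO library 2. It was 0.0650 and 0.0567 without EC KO libraries 2 and 3, 0.167 and 0.132 without CM KO libraries 1 and 3, 0.129, 0.0830 and 0.137 without Total KO libraries 1, 2 and 3, and 0.0576 and 0.0578 without Control libraries 1 and 2. By DESeq2 neither Slc25a45 comparison passed, at 0.49 (adjusted p = 0.0823) and -0.49 (adjusted p = 0.0613).

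Slc25a1, the citrate carrier that exports citrate for fatty acid synthesis, lies at chr16:17925223-17928219. It had 112, 115 and 128 normalized reads in Total KO, 173, 142 and 152 in CM KO, 121, 112 and 93.7 in EC KO, and 121 and 145 in Control. Its CM KO values lay above those of both other knockout groups and overlapped Control. The difference of Slc25a1 was 0.52 ± 0.15 in CM KO minus EC KO (adjusted p = 0.0267, limma) and -0.39 ± 0.14 in Total KO minus CM KO (adjusted p = 0.0849). The first had an adjusted p of 0.0572 and 0.0905 without EC KO libraries 2 and 3 and of 0.0985 and 0.0614 without CM KO libraries 1 and 3.

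Other settings ended further calls. Rescaling to library totals left adjusted p of 0.0544 for Slc25a12, 0.0793 for Slc25a20 and 0.0687 for Slc25a46 in CM KO minus EC KO, 0.122 for Slc25a38 and 0.0826 for Slc25a46 in Total KO minus CM KO, and 0.0556 for Slc25a34 in CM KO minus Control (limma). A limma fit to the 2 groups alone left 0.0601 for Slc25a1, 0.0664 for Slc25a12, 0.0608 for Slc25a20 and 0.0729 for Slc25a45 in CM KO minus EC KO, and 0.148 for Slc25a34 in CM KO minus Control. The same fit left 0.0512 for Slc25a11, 0.0508 for Slc25a38, 0.0597 for Slc25a45 and 0.0501 for Slc25a47 in Total KO minus CM KO. With no filter on low genes the adjusted p was 0.0537 and 0.0886 for Slc25a45 against EC KO and against Total KO, and 0.0737 for Slc25a34 against Control. All of these kept the direction given above.

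Some settings added calls for members already named. DESeq2 called Slc25a13 in CM KO minus Control (-0.38, adjusted p = 0.0407) and Slc25a34 in CM KO minus EC KO (-0.39, adjusted p = 0.0339), and limma called Slc25a34 there without CM KO library 2 (-0.50, adjusted p = 0.0254). Library-total rescaling added Slc25a1 in Total KO minus CM KO (-0.53, limma, adjusted p = 0.0349). For Slc25a3, limma passed without CM KO library 2 in CM KO minus EC KO (-0.44, adjusted p = 0.0453) and in Total KO minus CM KO (0.48, adjusted p = 0.0375), and in the second also among genes averaging at least 50 (0.40, adjusted p = 0.0487). Slc25a16 passed in CM KO minus EC KO without CM KO library 2 (-0.48, limma, adjusted p = 0.0213).

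The remaining 25 members passed in none of the 6 comparisons by limma over all libraries. Among them Slc25a26, which carries S-adenosylmethionine, passed in Total KO minus CM KO by edgeR (0.31, adjusted p = 0.0476), in a limma fit to the 2 groups (0.32, adjusted p = 0.0476) and without EC KO library 1 (0.32, adjusted p = 0.0461). Slc25a36, a carrier of pyrimidine nucleotides, passed by limma in CM KO minus EC KO without Control library 1 or 2 (-0.41 each, adjusted p = 0.0324 and 0.0317) or CM KO library 3 (-0.52, adjusted p = 0.0478), and in CM KO minus Control without Control library 2 (-0.66, adjusted p = 0.0477). Slc25a39, which carries glutathione, had 2326, 2396 and 2854 normalized reads in Total KO, 1831, 2099 and 2129 in CM KO, 2030, 2432 and 2509 in EC KO, and 2268 and 3074 in Control. Its CM KO values lay below both Control values and overlapped EC KO. Slc25a51, the NAD carrier, had 1130, 1183 and 1167 in Total KO, 966, 1060 and 1124 in CM KO, 1178, 1264 and 1187 in EC KO, and 1219 and 1124 in Control. Its CM KO values were the lowest 3, by a small margin, at -0.21 ± 0.08 in CM KO minus EC KO (limma, adjusted p = 0.100).

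The mitoferrins Slc25a37 and Slc25a28 import iron. Slc25a37 had 321, 299 and 330.3 normalized reads in Total KO, 343, 414 and 392 in CM KO, 381, 308 and 317 in EC KO, and 359 and 362 in Control. The Total KO values lay below the CM KO and Control values, at -0.27 ± 0.11 in Total KO minus CM KO (limma, adjusted p = 0.120), which became -0.41 (adjusted p = 0.0216) after library-total rescaling. Slc25a28 had 498, 515 and 606 in Total KO, 572, 566 and 581 in CM KO, 519.6, 560.3 and 542 in EC KO, and 547 and 575 in Control, with a range of 498 to 606 over all libraries.

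Slc25a44, the carrier of branched-chain amino acids, had 512, 546 and 496 normalized reads in Total KO, 478, 459 and 491 in CM KO, 483, 462 and 493 in EC KO, and 397 and 535 in Control. Control alone spanned the other 3 groups but 1 Total KO library. Slc25a17, of the peroxisome, had 310.6, 302 and 289 in Total KO, 302, 275 and 326 in CM KO, 308, 357 and 273 in EC KO, and 358 and 274 in Control. Slc25a27, a relative of the uncoupling proteins, had 140.0, 151 and 128 in Total KO, 139, 159 and 135 in CM KO, 151, 132 and 157 in EC KO, and 192 and 141 in Control. Neither gene separated any pair of groups, and their differences were at most 0.24 in size. For Slc25a35, of no settled cargo, 31.3% of the exon bases overlap Rangrf on the opposite strand.

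A few carrier family genes have other symbols, and Ucp2 was the one called most often. Ucp2, an uncoupling protein also made by immune cells, averaged 1308 ± 69 normalized reads in Total KO, 2603 ± 659 in CM KO, 1219 ± 75 in EC KO (SD, n = 3 each) and 1467 ± 159 in Control (SD, n = 2), and was higher in CM KO minus Control (0.80 ± 0.16, limma, adjusted p = 0.0189). Mtch1 was higher in CM KO minus EC KO (0.30 ± 0.09, adjusted p = 0.0305) and Mtch2, an outer membrane relative, was higher in Total KO minus CM KO (0.35 ± 0.10, adjusted p = 0.0207). Ucp3, the muscle form, passed in none, with 542 to 2157 in Total KO, 1038 to 2107 in CM KO, 582 to 1529 in EC KO, and 2454 and 2620 in Control. Ucp1, of brown fat, had reads in 1 library. The 6 macrophage markers were all called higher in CM KO minus Control, where 3.29% of all genes were. These are the libraries where Ucp2 was high, and the part of the macrophage markers in it was not tested.

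Of 14 other inner membrane transport genes tested, 4 were called in Total KO minus CM KO, where 16.4% of all genes were, and 2 in CM KO minus EC KO, where 19.1% were. Mpc1 and Mpc2, the subunits of the pyruvate carrier, were higher in Total KO minus CM KO (0.49 ± 0.14 and 0.44 ± 0.10, limma, adjusted p = 0.0278 and 0.0148), as was Abcb8 (0.46 ± 0.11, adjusted p = 0.0182). Sfxn3, a sideroflexin, was lower there (-0.65 ± 0.16, adjusted p = 0.0193). Set against EC KO, CM KO had higher Sfxn3 (0.50 ± 0.16, adjusted p = 0.0484) and lower Abcb8 (-0.43 ± 0.11, adjusted p = 0.0224), and the other 12 did not pass.

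Promoter windows of 300 bases, 250 before to 50 after the RefSeq start, were used for 30 of the 39 members. Chromosome 18 was left out, for the members and for all genes, so Slc25a46 has no window here. CCGGAAG on either strand occurred in the windows of 6 members (20%), against 9.93% of the 27025 genes with a window. They belong to Slc25a3, Slc25a4, Slc25a17, Slc25a20, Slc25a25 and Slc25a38. AAGGTCA, the half-site of the oestrogen-related receptors, occurred in 1 member (3.33%), Slc25a34, against 5.38% of all genes with a window. The NRF1 motif, which reads GCGC, any letter and TGCGC, occurred in 1 member (3.33%), Slc25a3, against 5.19%. Of the 9 members lower in CM KO than in another knockout group, 8 had a window, and 2 of these 8 (25%) held CCGGAAG and none the other motifs. The motifs were chosen after the expression values were seen, and a match describes letters only.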

How the data were processed

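RNA from mouse hearts was sequenced after ribosomal RNA removal with a stranded kit, per the labels' protocols. Per the submitters' processing notes, TopHat2, HTSeq 0.8.0, DESeq2 (given as version 3.5) and the mm10 build were used; annotation, strand setting and filters are not given in the sources used here. The deposited signal values are gene counts that the authors divided by 1 factor per library. All 257620 values were within 0.05 reads of whole reads, which were recovered for the alternatives.

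Here log2(value + 1) of the 12976 genes that averaged 10 or more was fitted with limma 3.58.1 (trended prior, R 4.3.3) to all 11 libraries, with 6 contrasts and an F test, Benjamini-Hochberg adjustment over all genes and a threshold of 0.05. A fold on this scale understates the change of low genes. Alternatives were other pseudocounts, filters and scalings, a fit to 2 groups, edgeR 4.0.16 and DESeq2 1.42.0, and each library left out. The fit was tested on simulated data whose changes were larger than most differences given here, so that test does not cover differences of this size. Exon lengths and positions are from GENCODE M21 (GRCm38), and overlapping exons of a gene were merged. The values of 1 called member are not reported here. Library values were given for the other members called in any test, the most abundant member of each role and others fixed by name. Members, roles, marker and partner lists were chosen with earlier results of these data known.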

Additional observations from a re-analysis of the deposited data

How the results depend on the processing

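No paired analysis was possible because the groups share no replicate number in the labels. Of the 25 calls of a member in a comparison, 8 held with each of the 11 libraries left out, and the others that are named here are given with their values above. With 1 library left out, members called ranged from 0 to 1 in EC KO minus Control, 0 to 3 in CM KO minus Control, 6 to 14 in CM KO minus EC KO, 5 to 12 in Total KO minus CM KO and 4 to 10 in the F test, and were 0 throughout in the other comparisons. In CM KO minus EC KO, 6 were called without EC KO library 1 (15.4%, against 13.6% of all genes), 6 without EC KO library 2 (15.4% against 12.4%) and 7 without CM KO library 1 (17.9% against 11.3%). In Total KO minus CM KO, 7 were called without CM KO library 1 (17.9% against 8.15%) and 5 without each of Total KO libraries 2 and 3 (12.8% against 9.62% and 7.98%). The F test called 5 without EC KO library 2, CM KO library 1 or either of Total KO libraries 2 and 3, and 4 without CM KO library 3. For the F test the share of all genes called in those fits is not given, so its counts there have no background. In CM KO minus Control, 1 member was called with no filter (2.56%, against 2.9% of all genes), 1 after library-total rescaling (2.56% against 6.2%), 0 in a fit to the 2 groups (against 0.483%) and 4 by DESeq2 (10.3% against 9.83%), so these counts are near or under the background. DESeq2 called 1 of 38 in EC KO minus Control (2.63%, against 1.25% of all genes). The cause was not tested. Library-total rescaling gave members' medians of -0.071 in CM KO minus Control, -0.066 in Total KO minus Control, 0.050 in CM KO minus EC KO and -0.044 in Total KO minus CM KO. Leaving out 1 library gave medians over all members of -0.025 to 0.041 in EC KO minus Control, -0.193 to -0.144 in CM KO minus Control, -0.141 to -0.024 in CM KO minus EC KO and 0.068 to 0.128 in Total KO minus CM KO. Medians were recomputed as an alternative chosen after seeing the data. Of 4664 values of a member, comparison and setting, 176 changed sign, all where neither setting made a call, and these were not counted as reversals. The 2268403 reads of EC KO library 1, where 1 read is worth 6.04 normalized reads, limit the low members, and 2 Control libraries limit every comparison with Control.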
